A study of Mus musculus with 16 samples.

Results

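The ionotropic glutamate receptors of the AMPA class, built from the subunits encoded by *Gria1* to *Gria4*, and of the kainate class, built from those of *Grik1* to *Grik5*, were followed in the hippocampus of newborn and juvenile mice. Their members were chosen by name, as every probe of the Illumina MouseRef-8 v2 beadchip table whose symbol or Entrez gene number belongs to 1 of the 9 genes. These were 15 of the 25697 probes of the table, and they read 8 of the 9 genes, since no probe was named for *Grik3*. Of the 15 probes, 12 probes of 7 genes were detected against negative control beads, at a detection p under 0.05, on 4 or more of the 16 arrays. These 12 entered the tests among 14777 probes in all.

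AMPA receptors carry most of the fast excitatory current at synapses of the brain. Each channel is a complex of subunits, and inclusion of GluA2, the product of *Gria2*, makes it nearly impermeable to calcium. Kainate receptors modulate transmitter release and slow synaptic currents. The products of *Grik1* to *Grik3* can form channels by themselves, while those of *Grik4* and *Grik5* bind glutamate with high affinity and need 1 of the former as a partner. In the hippocampus, GluA1 and GluA2 are the principal AMPA subunits of pyramidal neurons.

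RNA came from the hippocampus at postnatal days (P) 1 and 30, from WT and from *Mef2c*-het mice, with 4 samples in each of the 4 groups. The heterozygous mice, which the labels call KO, lack exon 2 of 1 *Mef2c* copy in every cell of the body, MEF2C being a transcription factor of neurons and muscle, and both genotypes were on the C57BL/6J background, with WT littermates as controls. No treatment was named. The labels do not give sex, litter, chip or pooling, so that p-values measure the spread between these samples.

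Signals are given as log2 of the deposited intensity after quantile normalization over the 16 arrays, and only levels of the same probe were compared. The probes of these genes were each read from 18 to 58 beads per array, whose standard error amounted to 2.22% to 7.03% of the signal. Between 12638 and 14150 probes were detected on an array. Arrays of 1 age correlated at 0.985 to 0.997 and arrays of different ages at 0.921 to 0.944 (Pearson's r over all probes). Within each age the arrays fell into a larger and a smaller cluster, and the smaller one, of higher background, held WT replicate 8 and *Mef2c*-het replicate 8 at P1 and WT replicates 6 and 7 and *Mef2c*-het replicate 7 at P30. Xist and Y-linked probes read all P30 mice as male and the P1 mice as 5 females and 3 males, so that sex and age are partly mixed. *Mef2c* itself did not separate the genotypes. At P30 its probe ILMN_2887992 read 8.59, 8.62, 8.70 and 8.96 in WT and 8.16, 8.16, 8.42 and 8.95 in *Mef2c*-het mice (log2 fold change -0.29, two-sided exact permutation test, p = 0.200), and the 8.95 was *Mef2c*-het replicate 7. Its second probe, ILMN_2732465, had a log2 fold change of -0.25 (two-sided exact permutation test, p = 0.371), and at P1 the values were 0.07 and -0.01. Whether either probe lies in the deleted exon is not given in the sources used here.

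Markers of several cell types changed with age in both genotypes, and in bulk RNA fewer cells of a type and less RNA per cell cannot be told apart. In WT the 6 oligodendrocyte markers all rose, with a median log2 fold change of 5.55 and a summed intensity of 1174 to 1420 at P1 and 65350 to 73090 at P30. All 5 tested markers of proliferating cells fell (median -2.04), and all 5 tested interneuron markers rose (median 1.27). Of the 5 tested excitatory neuron markers 2 rose and 3 fell, and their summed intensity was 3342 to 4528 at P1 and 22310 to 25970 at P30. Of 6 astrocyte markers 5 rose, of 6 microglial markers 6, of 4 markers of oligodendrocyte progenitors 3 and of the 3 tested striatal markers 2, while 3 of 4 thalamic markers rose and 1 fell. Of the 4 markers of the choroid plexus, a tissue that borders the hippocampus, 1 rose, and their summed intensity ranged from 1163 to 22100 within WT at P30 alone. Rose and fell here mean an adjusted p under 0.05 (limma), and over all probes tested 28% rose and 31.7% fell in WT. The lists are short and hold the brightest tested probe of each gene, so their counts and these shares are not of like sets. None of the marker lists had a gene called between genotypes. The part of these shifts in the changes given below was not tested.

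From P1 to P30, the AMPA receptor gene *Gria1* rose between 3.47-fold and 4.45-fold over its 3 probes in WT hippocampus and *Gria2* 1.96-fold and 2.72-fold over its 2. *Gria3* and the kainate receptor gene *Grik5* rose as well, and *Gria4*, *Grik1* and *Grik4* did not pass the threshold in WT. Of the 12 probes, the *Gria3* probes ILMN_1223636 and ILMN_1238789 were each detected on 1 of the 8 P1 arrays, and passed the filter through the P30 arrays, so that their age values are given as a description and are not counted. Of the other 10 probes, detected on 4 or more arrays of each age, 7 were called higher at P30 in WT and none lower (limma, adjusted p under 0.05). Over all probes tested 59.7% were called, 28% higher and 31.7% lower. The groups did not overlap for 7 of the 10 probes, against 53.1% of all probes tested. In *Mef2c*-het mice 8 of the 10 probes were called higher and 1 lower, where 58.3% of all probes were called, 26.9% higher and 31.4% lower. The groups of 8 of them did not overlap, against 52.5% of all probes. Those shares cover every tested probe, dim ones included, so the counts and the shares are not of like sets. The 7 probes called in WT include 3 of *Gria1* and 2 of *Gria2*. With 1 probe per gene, 4 of 7 probes were called in WT and 6 of 7 in *Mef2c*-het mice.

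**Figure D1:**
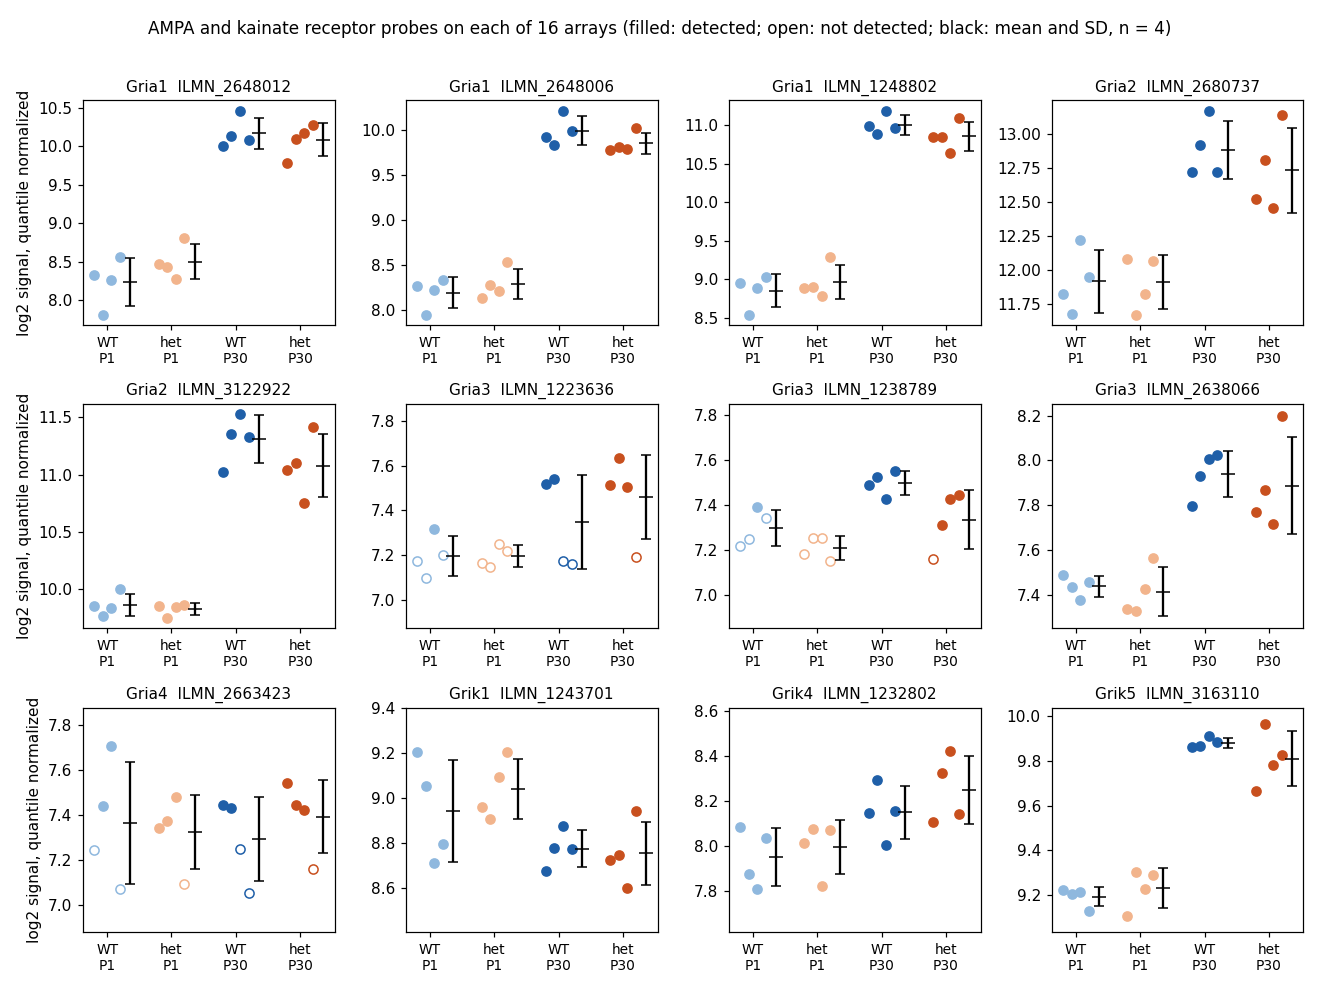
Log2 signal (y axis, quantile normalized, with a separate range for each panel) of the 12 tested probes in WT and *Mef2c*-het (het) mice at P1 and P30. Each point is 1 array, filled where the probe was detected and open where it was not, and the black bars are the mean and SD of 4 arrays. The 3 *Gria1* probes, the 2 *Gria2* probes and the *Grik5* probe lie apart between the ages in both genotypes, while WT and *Mef2c*-het points of the same age overlap in every panel.

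*Gria1* encodes GluA1, the subunit whose phosphorylation and insertion into the membrane accompany long-term potentiation. Its probe ILMN_1248802 read 8.54, 8.88, 8.95 and 9.04 in WT and 8.79, 8.88, 8.91 and 9.30 in *Mef2c*-het mice at P1. At P30 it read 10.89, 10.96, 10.99 and 11.19 in WT and 10.64, 10.85, 10.85 and 11.10 in *Mef2c*-het mice. Every P30 array lay above every P1 array, and the genotypes overlapped at both ages. In WT the log2 fold change was 2.15 (standard error 0.13, adjusted p = 3.11e-10 from limma), which is 4.45-fold, and 1.94% of all probes tested changed by more. The change in *Mef2c*-het mice was 1.89 (standard error 0.13, adjusted p = 1.69e-09 from limma), or 3.71-fold.

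The other two *Gria1* probes moved in the same way. On the log2 scale, ILMN_2648012 rose by 1.93 in WT and by 1.59 in *Mef2c*-het mice, and ILMN_2648006 rose by 1.80 and 1.56. The ages did not overlap for either (two-sided exact permutation test, p = 0.0286, which no split of 4 and 4 arrays can go below). Within groups the 3 probes varied together from array to array, with r of 0.80 to 0.92 over the 16 deviations from group means. At P1, replicate 8 was the highest array of its genotype for all 3 probes in both WT and *Mef2c*-het mice, and both of these arrays belong to the smaller cluster. In the larger cluster alone the WT changes of ILMN_2648012, ILMN_2648006 and ILMN_1248802 were 1.97, 1.76 and 2.16. Over all alternatives they ran from 1.69 to 2.55, from 1.64 to 2.40 and from 1.96 to 2.51.

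*Gria2* encodes GluA2, the subunit that limits calcium entry. Its probe ILMN_2680737 read 11.67, 11.82, 11.95 and 12.22 in WT and 11.67, 11.82, 12.07 and 12.08 in *Mef2c*-het mice at P1, and 12.72, 12.72, 12.92 and 13.17 in WT and 12.45, 12.52, 12.81 and 13.14 in *Mef2c*-het mice at P30. The ages did not overlap in either genotype. The log2 fold change was 0.97 in WT (standard error 0.16, adjusted p = 4.68e-05 from limma), which is 1.96-fold, and 0.82 in *Mef2c*-het mice (standard error 0.16, adjusted p = 0.000239 from limma).

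The second *Gria2* probe, ILMN_3122922, had the larger estimates. It read 9.77, 9.83, 9.85 and 10.0003 in WT and 9.75, 9.85, 9.86 and 9.86 in *Mef2c*-het mice at P1. At P30 it read 11.02, 11.32, 11.35 and 11.53 in WT and 10.75, 11.04, 11.10 and 11.41 in *Mef2c*-het mice. The spread between arrays was thus wider at P30 than at P1, with an SD of 0.21 against 0.098 in WT and 0.27 against 0.055 in *Mef2c*-het mice, a difference that was not tested. The log2 fold change was 1.44 in WT (standard error 0.12, adjusted p = 2.10e-08 from limma), or 2.72-fold, and 1.25 in *Mef2c*-het mice (standard error 0.12, adjusted p = 1.25e-07 from limma), or 2.38-fold. Whether the probes differ in their change was tested on the difference between them on each array, over 7 pairs of probes of the same gene. For *Gria2* the WT age changes of the 2 probes differed by 0.47 on the log2 scale, with every WT array of P30 apart from those of P1 (two-sided exact permutation test, p = 0.0286, adjusted p = 0.0667 over the 7 pairs), and by 0.42 in *Mef2c*-het mice (two-sided exact permutation test, p = 0.0286). None of the 7 pairs passed the adjusted threshold.

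The promoter of *Gria2* is shown because it was the only one among the receptor genes that held the letters of an RE1 element, the site at which the repressor REST binds neuronal genes. RefSeq promoters of GRCm38.p6, taken as 250 bases before to 50 after a transcript start, were given for 6 of the 9 genes, namely *Gria2*, *Gria4*, *Grik2*, *Grik3*, *Grik4* and *Grik5*. The *Gria2* promoter, at chr3:80802786-80803085 on the minus strand, is printed 5′ to 3′ in the direction of the gene, with the RE1 letters in capitals.
Gria2 promoter: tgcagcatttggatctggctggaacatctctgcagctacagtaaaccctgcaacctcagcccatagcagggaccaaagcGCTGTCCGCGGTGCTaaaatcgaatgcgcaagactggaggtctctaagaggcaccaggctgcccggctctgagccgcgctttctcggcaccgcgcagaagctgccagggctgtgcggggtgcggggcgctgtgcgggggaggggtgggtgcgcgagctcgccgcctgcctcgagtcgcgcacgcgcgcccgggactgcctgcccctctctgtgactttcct
The RE1 letters searched were GCTGTCCNNGGTGCT on both strands, a search chosen after the sequence was seen, and the match begins 171 bases before the start. They stood in the promoters of 10 of 27025 genes, or 0.037%. Among the others, *Hrh3*, *Osbp2*, *Scamp5* and *Lhx3* had tested probes. *Hrh3*, a histamine receptor, rose by 1.36 on the log2 scale in WT, *Osbp2* by 1.15 and *Scamp5* by 0.74 and 0.80 on its 2 probes, while *Lhx3* had 0.06 (adjusted p = 0.426 from limma). Over all probes tested 28% were called higher in WT. Whether the letters bear on any of these changes was not tested. The MEF2 consensus, searched likewise on both strands, stood in the promoters of 172 of the 27025 genes, or 0.636%, and in none of the 6 given here. A match of letters is a description of the sequence, and its absence says only that the letters are not in this window.

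*Gria3*, on the X chromosome, encodes GluA3 and was read dimly. Its probe ILMN_2638066, detected on all 16 arrays, read 7.38, 7.43, 7.46 and 7.49 in WT and 7.33, 7.34, 7.43 and 7.57 in *Mef2c*-het mice at P1. At P30 it read 7.79, 7.93, 8.0 and 8.02 in WT and 7.72, 7.77, 7.87 and 8.20 in *Mef2c*-het mice. Both genotypes thus rose without overlap between the ages, with log2 fold changes of 0.50 in WT (standard error 0.092, adjusted p = 0.000178 from limma) and 0.47 in *Mef2c*-het mice (standard error 0.092, adjusted p = 0.000307 from limma). The change was called in each of the 26 alternatives run for it. With normexp background correction the log2 fold changes were 1.24 in WT and 1.21 in *Mef2c*-het mice.

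The other two *Gria3* probes were near background, and since the P30 arrays let them past the filter their age values support no change. ILMN_1238789 was detected on 8 of 16 arrays, 7 of them at P30, and had a log2 fold change of 0.20 in WT (adjusted p = 0.0168 from limma). The WT value was 0.66 with normexp background correction, and 0.17 and no longer called without WT replicate 1 at P1 (adjusted p = 0.0551 from limma). In *Mef2c*-het mice it had 0.13 and was not called (adjusted p = 0.118 from limma). No P1 array of that genotype detected it. With those arrays at their detection limit the fold was 1.02, an estimate with no interval that sets no minimum. Without *Mef2c*-het replicate 3 at P30 the probe was called at 0.18. ILMN_1223636 was detected on 6 arrays, 5 of them at P30. At P30 it read 7.52 and 7.54 on WT replicates 2 and 3, but 7.18 and 7.16, not detected, on replicates 6 and 7, and *Mef2c*-het replicate 7 read 7.19, not detected, against 7.50, 7.51 and 7.63 on the other three. The 3 low arrays were those of the smaller cluster. Over all arrays the change was 0.15 in WT (adjusted p = 0.211 from limma) and 0.26 in *Mef2c*-het mice (adjusted p = 0.0331 from limma, or an estimate of 1.11-fold with the P1 arrays at their detection limit). The latter call was lost without any 1 of *Mef2c*-het replicates 1 and 2 at P1 or 3, 5 and 6 at P30, with values of 0.21 to 0.25. In the larger cluster alone it was 0.36 in WT (adjusted p = 0.00293 from limma) and 0.39 in *Mef2c*-het mice.

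*Gria4* encodes GluA4, which in the adult hippocampus is found mainly in interneurons and in pyramidal neurons mainly in early life. Its only probe, ILMN_2663423, was detected on 10 of 16 arrays. It read 7.07, 7.25, 7.44 and 7.71 in WT and 7.09, 7.34, 7.37 and 7.48 in *Mef2c*-het mice at P1, and 7.05, 7.25, 7.43 and 7.45 in WT and 7.16, 7.42, 7.44 and 7.54 in *Mef2c*-het mice at P30. The ages overlapped throughout, with a log2 fold change of -0.07 in WT (95% interval -0.35 to 0.20) and 0.07 in *Mef2c*-het mice (95% interval -0.21 to 0.35). The 4 groups could not be put in an order beyond their spread. In each group the lowest array was one of the smaller cluster, and the probe was not detected on any array of that cluster. With the cluster as a covariate the change was -0.04 in WT and 0.03 in *Mef2c*-het mice.

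**Figure D2:**
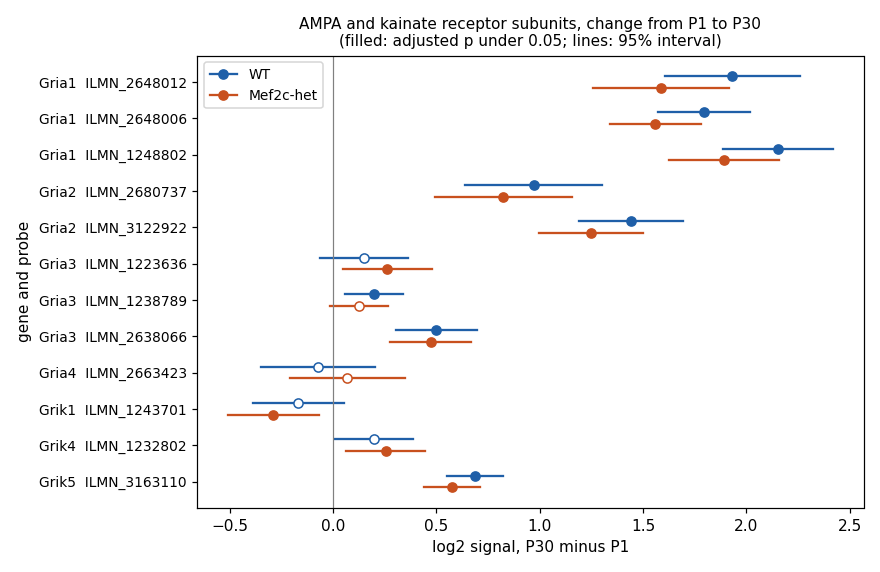
Difference in log2 signal between P30 and P1 (x axis) for the 12 tested probes (y axis) in WT (blue) and *Mef2c*-het (orange) mice. Points are estimates of the fit, filled where the adjusted p was under 0.05, and lines are 95% intervals. The estimates run from 2.15 for *Gria1* to -0.17 for *Grik1* in WT, and the intervals of the genotypes overlap for every probe.

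Among the kainate receptor genes *Grik5*, which encodes the high-affinity subunit GluK5, changed most. Its probe ILMN_3163110 read 9.13, 9.20, 9.22 and 9.22 in WT and 9.11, 9.23, 9.29 and 9.30 in *Mef2c*-het mice at P1. At P30 it read 9.86, 9.86, 9.88 and 9.91 in WT and 9.67, 9.78, 9.83 and 9.96 in *Mef2c*-het mice. The ages lay well apart, and the WT arrays at P30 spanned a narrower range than those of *Mef2c*-het mice, with an SD of 0.021 against 0.12, a difference that was not tested. The log2 fold change was 0.69 in WT (standard error 0.063, adjusted p = 8.84e-08 from limma), or 1.61-fold, and 0.58 in *Mef2c*-het mice (standard error 0.063, adjusted p = 7.24e-07 from limma), or 1.49-fold.

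*Grik4* encodes the other high-affinity subunit, GluK4, which is known for its abundance in the CA3 field. Its probe ILMN_1232802 read 7.81, 7.88, 8.03 and 8.08 in WT and 7.82, 8.01, 8.07 and 8.08 in *Mef2c*-het mice at P1, and 8.0, 8.15, 8.15 and 8.29 in WT and 8.11, 8.14, 8.33 and 8.42 in *Mef2c*-het mice at P30. The WT ages overlapped, with a log2 fold change of 0.20 (adjusted p = 0.0686 from limma). Those of *Mef2c*-het mice did not, with 0.25 (adjusted p = 0.0228 from limma, two-sided exact permutation test, p = 0.0286). The call depends on the setting. With normexp background correction the values were 0.37 in WT and 0.45 in *Mef2c*-het mice. In WT the call was made in 5 of 26 alternatives, among them those without WT replicate 1 at P1 (0.24) and without WT replicate 6 at P30 (0.25). In *Mef2c*-het mice it was made in 21 of 26, and was lost without *Mef2c*-het replicate 4 at P1 or 5 or 6 at P30 (0.20, 0.23 and 0.20), with sex as a covariate (0.19) and with scaling to a common median (0.22, adjusted p = 0.110 from limma). The 2 changes differed by 0.06 (95% interval -0.21 to 0.33).

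*Grik1* encodes GluK1, a subunit of interneurons and early-life synapses in the hippocampus. Its probe ILMN_1243701 was detected on all arrays and read 8.71, 8.80, 9.05 and 9.21 in WT and 8.90, 8.96, 9.09 and 9.20 in *Mef2c*-het mice at P1. At P30 it read 8.68, 8.77, 8.78 and 8.88 in WT and 8.60, 8.72, 8.75 and 8.94 in *Mef2c*-het mice. It had lower means at P30, by a log2 fold change of -0.17 in WT (adjusted p = 0.182 from limma) and of -0.29 in *Mef2c*-het mice, where it was called (adjusted p = 0.0259 from limma) although the ages overlapped (two-sided exact permutation test, p = 0.0571). The call in *Mef2c*-het mice was made in 20 of 26 alternatives, and was lost without *Mef2c*-het replicates 4 or 8 at P1 (-0.27 and -0.23), without 3 or 6 at P30 (-0.28 and -0.24), with sex as a covariate (-0.25) and with cyclic loess (-0.21, adjusted p = 0.0997 from limma). The change in *Mef2c*-het mice minus that in WT was -0.12 (95% interval -0.43 to 0.19). The other two *Grik1* probes, ILMN_3145360 and ILMN_3067105, were not detected on any of the 16 arrays, with 7.03 to 7.25 and 6.81 to 7.12, so that the probes of this gene disagree on whether it was detected.

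*Grik2*, which encodes GluK2, the principal kainate subunit of pyramidal neurons, was represented by 1 probe, ILMN_1233956. It was detected on only WT replicate 5 at P1, with 7.37, and WT replicate 6 at P30, with 7.33. Elsewhere it read 7.09 to 7.35, and it was therefore not tested. No level can be given for *Grik3*.

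For *Gria1*, *Gria2*, *Grik5* and *Gria3* ILMN_2638066, both P30 groups lay above both P1 groups, and within an age the genotypes could not be ordered beyond their spread.

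**Figure D3:**
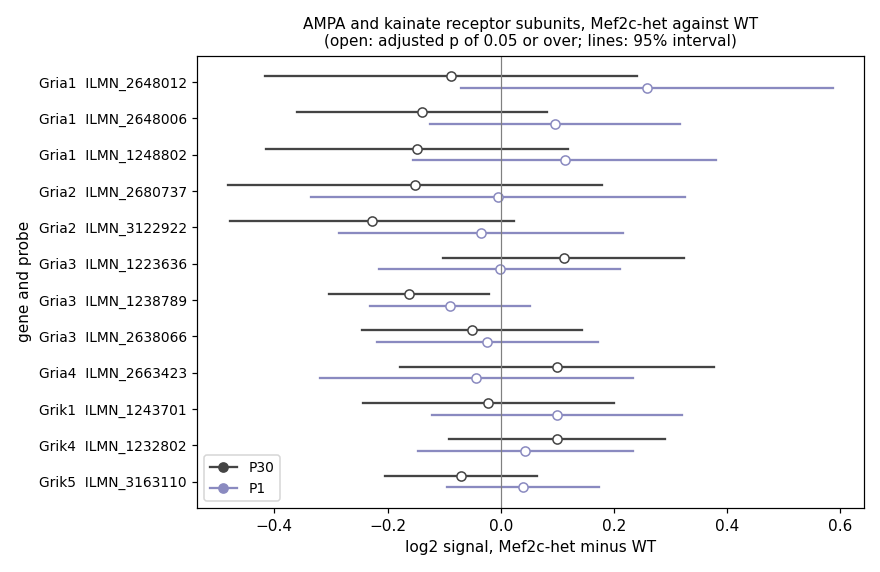
Difference in log2 signal between *Mef2c*-het and WT mice (x axis) for the 12 tested probes (y axis) at P30 (dark) and P1 (violet). Points are estimates, all open because no adjusted p was under 0.05, and lines are 95% intervals. All but 1 interval cross 0, the exception being *Gria3* ILMN_1238789 at P30, and at P30 the 5 *Gria1* and *Gria2* estimates lie below 0.

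Between genotypes no receptor probe was called at either age. At P30 the lowest adjusted p of the 12 probes was 0.994 and at P1 it was 1 (limma), where 0.00677% of all probes tested were called at P30, which is 1 probe, and 0.0135% at P1, which is 2 probes. Without adjustment, 1 of the 12 probes had p under 0.05 at P30 and none at P1, against 2.84% and 2.28% of all probes. It was *Gria3* ILMN_1238789, at -0.16 (standard error 0.066; two-sided exact permutation test of the 8 arrays, p = 0.0571), with 7.43, 7.49, 7.53 and 7.55 in WT and 7.16, 7.31, 7.43 and 7.44 in *Mef2c*-het mice. It ran from -0.53, with normexp background correction, to -0.10, without *Mef2c*-het replicate 3, over the alternatives, and *Gria3* ILMN_2638066 had -0.05.

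At P30 the median log2 fold change of the 12 probes, *Mef2c*-het against WT, was -0.08, against -0.01 over all probes tested. The 3 *Gria1* probes had -0.09, -0.14 and -0.15, and the *Gria2* probes -0.15 and -0.23. Probes of 1 gene varied together within groups (r of 0.80 to 0.92 for *Gria1* and 0.75 for *Gria2*), so that they are not separate evidence. *Gria2* ILMN_3122922 had a 95% interval of -0.48 to 0.02 (two-sided exact permutation test, p = 0.286). *Mef2c*-het replicate 7 was the highest array of its group on all 5 of these *Gria1* and *Gria2* probes, and WT replicate 6 the highest of WT, both of the smaller cluster. Without *Mef2c*-het replicate 7, the array on which the *Mef2c* probes were also highest, the *Gria2* values were -0.29 and -0.34 and still not called (adjusted p = 0.588 for both, limma), and in the larger cluster alone they were -0.23 and -0.22. Over all alternatives they ran from -0.29 to -0.06 and from -0.34 to -0.12. Among the kainate genes *Grik5* had -0.07 and *Grik4* 0.10, while *Grik1* had -0.02, which scaling to a common median turned to 0.00661. Over the 12 probes the intervals at P30 reached from -0.48 to 0.38 with the settings used here, and the estimate of *Gria3* ILMN_1238789 with normexp background correction lay outside that range.

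At P1 no *Mef2c*-het array detected *Gria3* ILMN_1223636 or ILMN_1238789, so that they have no direction there. Of the other 10 probes, 6 had higher and 4 lower means in *Mef2c*-het mice. *Gria1* ILMN_2648012 had 0.26 (95% interval -0.07 to 0.59, two-sided exact permutation test, p = 0.257), with 0.43 under normexp background correction and 0.12 and 0.15 without WT replicate 4 or *Mef2c*-het replicate 8, and the *Gria2* probes had -0.01 and -0.03. The intervals at P1 reached from -0.34 to 0.59. No receptor probe was called for a change of the genotype difference with age, with 0% of all probes called, and none had an unadjusted p under 0.05 against 2.96% of all probes. This change, P30 minus P1, had a median of -0.13 over these 10 probes and of -0.01 over all probes tested. The *Gria1* probes had -0.35, -0.24 and -0.26, of which the first had a 95% interval of -0.81 to 0.12. Over the alternatives they ran from -0.53 to -0.20, from -0.32 to -0.15 and from -0.34 to -0.15, and all 3 were nearer to 0 without WT replicate 4 at P1.

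AMPA and kainate receptors depend on other proteins for their folding, gating and anchoring, and a list of 31 such genes was examined, each gene by its tested probe of highest signal. It held 24 genes with a probe, of which 22 were tested. The probe of *Cacng8* was detected on 1 of the 8 P1 arrays and is not counted, as it passed the filter through the P30 arrays. From P1 to P30, 15 of the other 21 rose and 3 fell in WT, and 15 rose and 3 fell in *Mef2c*-het mice. Over all probes tested 28% rose and 31.7% fell in WT, and 26.9% rose and 31.4% fell in *Mef2c*-het mice. Those shares cover every tested probe, dim ones included. The list holds the brightest probe of each gene, so the counts and the shares are not of like sets.

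*Nsf*, which encodes an ATPase of membrane fusion that binds GluA2, rose by 2.42 on the log2 scale in WT (standard error 0.11, adjusted p = 9.78e-12 from limma). *Nptx1*, a secreted pentraxin that clusters AMPA receptors, rose by 2.13, or 3.44 with normexp background correction, and *Shisa7*, an auxiliary protein, also by 2.13. *Adarb1*, the enzyme that edits the *Gria2* transcript at the site that sets calcium permeability, rose by 1.90 on ILMN_3105343, by 0.27 on another, and had 0.08 on the last (adjusted p = 0.357 from limma). *Dlg4*, the scaffold PSD-95 of the postsynaptic density, rose by 1.75. These 5 values came from groups that did not overlap between the ages.

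The only genes of the list that fell in WT were *Cacng4*, *Pick1* and *Grip1*. *Cacng4*, a transmembrane AMPA receptor regulatory protein, fell by 0.98 (standard error 0.087, adjusted p = 6.09e-08 from limma), and in *Mef2c*-het mice it fell by 0.80. With normexp background correction the values were -2.17 and -1.87. *Pick1*, which binds the tail of GluA2 and takes part in its removal from the membrane, fell by 0.40 on 1 of 3 probes (adjusted p = 0.00475 from limma), while the other two had -0.04 and -0.14 and were not called. With sex as a covariate the called probe had -0.31 (adjusted p = 0.0750 from limma). *Grip1*, a scaffold of the same tail, fell by 0.35 (adjusted p = 0.0491 from limma), a call made in 13 of 26 alternatives, with values of -0.57 to -0.26, and lost without any 1 of several WT or *Mef2c*-het arrays. Its second probe fell by 0.31, and in *Mef2c*-het mice the first fell by 0.62, called in all 26. In *Mef2c*-het mice *Pick1* was not called, at -0.16. *Cacng5* fell by 0.32 on 1 of its 2 tested probes (adjusted p = 0.0258 from limma), although the ages overlapped (two-sided exact permutation test, p = 0.114). Its other tested probe had -0.18 and was not called (adjusted p = 0.237 from limma). The call was lost without *Mef2c*-het replicates 1, 2 or 8 at P1 or 5 at P30, with values of -0.30 to -0.24, and with cyclic loess (-0.25). The difference between genotypes in these changes was not called for any gene of the list.

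The transmembrane AMPA receptor regulatory proteins, which slow the closing of the channel and carry it to the synapse, did not move as 1 group. Of the 6 on the list, *Cacng3* and *Cacng7* rose in WT, by 1.20 and 0.43 on the log2 scale, and *Cacng4* fell, while *Cacng2*, which encodes stargazin, had 0.16 (adjusted p = 0.117 from limma) and *Cacng5* -0.11 (adjusted p = 0.442 from limma). With normexp background correction the WT values of *Cacng3* and *Cacng7* were 2.12 and 1.16, and without WT replicate 1 at P1 *Cacng2* was called at 0.21. In *Mef2c*-het mice *Cacng3* rose by 1.25, or 2.30 with normexp background correction, and *Cacng7* had 0.17 (adjusted p = 0.164 from limma). The second *Cacng3* probe rose by 0.68 in WT and 0.80 in *Mef2c*-het mice. Of the cornichons, which take part in the export of AMPA receptors from the endoplasmic reticulum, *Cnih2* rose by 0.58 in WT and 0.41 in *Mef2c*-het mice, and *Cnih3* had 0.15 in WT (adjusted p = 0.103 from limma), or 0.20 and called without WT replicate 2 at P30. *Neto1*, an auxiliary subunit of kainate receptors, rose by 0.94 in WT and 0.98 in *Mef2c*-het mice, or 1.42 and 1.55 with normexp background correction. Its probe ILMN_2687473 rose by 0.76 and 0.65. Its probe ILMN_2620827 had 0.36 and 0.45 and was not called (adjusted p = 0.222 and 0.129 from limma).

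**Figure D4:**
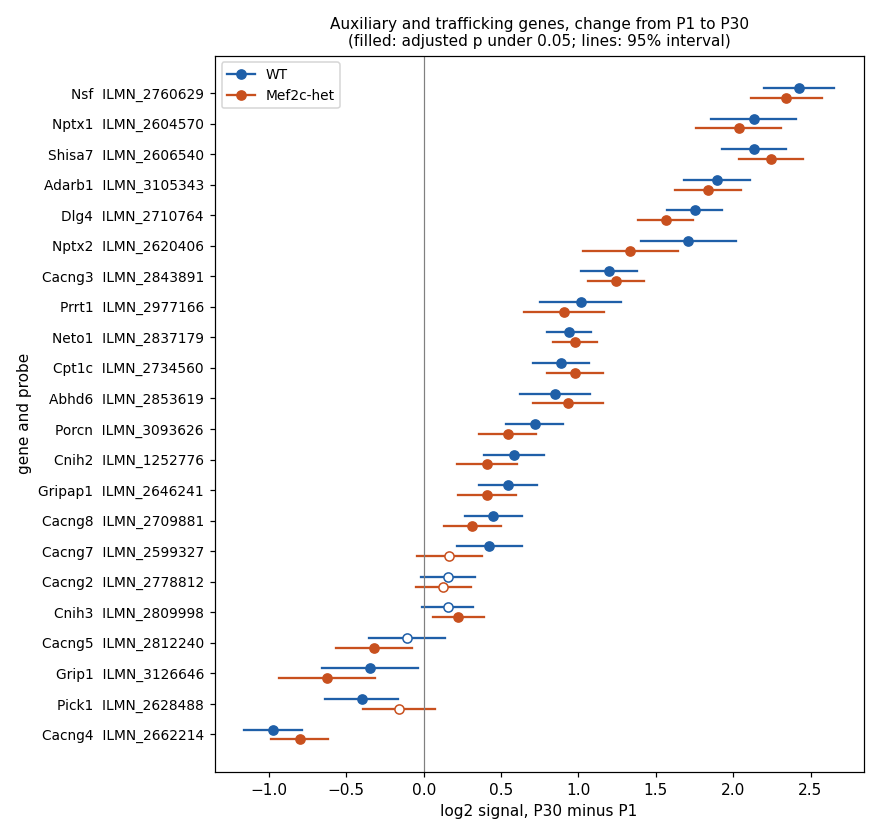
Difference in log2 signal between P30 and P1 (x axis) for the 22 tested genes of the auxiliary and trafficking list (y axis, ordered by the WT value) in WT (blue) and *Mef2c*-het (orange) mice. Filled points had an adjusted p under 0.05 and lines are 95% intervals. *Nsf* at 2.42 is highest in WT and *Cacng4* at -0.98 lowest, with 16 filled points above 0 and 3 below in each genotype, *Cacng8* among the former.

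Between genotypes none of the 22 genes was called at P30 or P1 (limma), and 1 had an unadjusted p under 0.05 at P30 and none at P1. It was *Dlg4* at -0.20 (standard error 0.084, adjusted p = 0.994 from limma, two-sided exact permutation test, p = 0.200). The median of the list was -0.08 at P30 and -0.01 at P1, beside -0.01 and 0.00 over all probes tested.

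The genes whose signal followed that of each receptor gene most closely were found by Pearson's r over the 16 arrays, which share the difference between the ages, so that r describes a common course and no more. For *Gria1* they were *Dlgap2* (r = 0.998), *Rgs7bp* and *Acsl6*, for *Gria2* *Nab2* (r = 0.977), *Dbndd2* and *Irgm2*, and for *Gria3* *Celf4* (r = 0.987), *Fam234b* and *Ankrd40*. For *Grik5* they were *Kif21a* (r = 0.987), *Napa* and *Syt1*. The closest r was lower for the genes with little change between the ages, at 0.928 for *Gria4* with *Nmd3*, 0.870 for *Grik1* with *Piwil1* and 0.838 for *Grik4* with *Rasgrp1*.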

How the data were processed

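Hippocampal RNA of 16 mouse samples was hybridised as biotinylated cRNA to Illumina MouseRef-8 v2 beadchips. Per the file headers, the deposited table holds 4 columns per array for 25697 probes. The deposited values are the mean bead intensity, linear and without normalization between arrays, and its bead standard error in the same intensity unit. The deposited detection p-value sets each probe against negative controls, and the deposited bead count is the number of beads averaged. No source used here states if local background had been removed. The lowest deposited intensity was 92.79, so that no constant was added before log2. The submitters' processing notes name limma and lumi, and the study's methods name log2 and quantile normalization.

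The same steps were applied here to all 16 arrays with R 4.3.3 and limma 3.58.1, so that both ages and genotypes share 1 scale. The 14777 probes detected at p under 0.05 on 4 or more arrays entered lmFit with 4 group means and eBayes. Two-sided p-values were adjusted over all of them by Benjamini and Hochberg's method, with a threshold of 0.05. Contrasts were P30 against P1 in each genotype, *Mef2c*-het against WT at each age, and the difference of the latter between the ages. For single probes all 70 assignments of the 8 arrays of a comparison were also enumerated (exact permutation test, two-sided, smallest p 0.0286). For a group with no detected array a fold was also taken from the lowest detected signal of each array, an estimate with no interval. Probes were named through the Entrez numbers, accessions or symbols of the table and RefSeq genes of GRCm38.p6 (25375 probes matched). Promoter sequences are from RefSeq, GRCm38.p6.

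The receptor genes, the auxiliary list, the markers and the rule for named genes (all members, the 5 largest rises and 5 largest falls of the auxiliary list among those called in WT, those with an unadjusted p under 0.05 between genotypes, and the 3 genes most like each member) were chosen with earlier results of these data known. *Hrh3*, *Osbp2*, *Scamp5*, *Lhx3*, *Neto1*, the cornichons and the *Cacng* genes other than *Cacng4* were named after their values were seen. Alternatives were normexp background correction (offset 16), cyclic loess or scaling to a common median in place of quantiles, a detection filter at 0.01 or none, 1 probe per gene, trend and robust variances, the array cluster or sex as a covariate, the 8 arrays of 1 age alone, the replicate number as a block, and each array left out. The steps were tested on simulated data. The precision is limited by the 4 arrays of each group.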

Additional observations from a re-analysis of the deposited data

Results flagged for a closer look

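In 48 groups of 4 arrays, of the 12 tested receptor probes, 2 arrays stood far from the other three of their group as their gap to the nearest array was a large share of the group's range. Chance flags about 1 in 20 groups. *Gria1* ILMN_2648006 read 10.02 on *Mef2c*-het replicate 7 at P30, above 9.78 to 9.82 on the others (gap 0.839 of the range). *Gria2* ILMN_3122922 read 9.75 on *Mef2c*-het replicate 2 at P1, below 9.85 to 9.86 on the others (gap 0.839 of the range).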

How the results depend on the processing

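Over 28 alternatives, 1 of them (the larger array cluster alone) added after the data were seen and 26 of them run for the age comparisons, the age-related rises of *Gria1*, *Gria2*, *Grik5* and *Gria3* ILMN_2638066 were called in every one that tested the probe, in both genotypes, and no receptor probe was called between genotypes. Counting all 12 receptor probes, the number called between the ages was 8 in WT and 10 in *Mef2c*-het mice, and 8 to 9 and 7 to 10 without each array in turn. With 1 probe per gene it was 4 and 6, since fewer probes were tested, with sex as a covariate 7 in each, and with the cluster as a covariate or the larger cluster alone 10 in each. *Gria3* ILMN_1223636 in *Mef2c*-het mice was called in 19 of 25 alternatives and ILMN_1238789 in WT in 22 of 24. The P30 arrays let both past the filter, so these calls and counts of all 12 are descriptive only. Dim probes are limited by their closeness to background, and the 4 arrays of a group by number.

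Over all probes, 1 probe was called between genotypes at P30 and 2 at P1. At P30 these were 0 with the block, common-median scaling or the larger cluster alone, and 2 without *Mef2c*-het replicate 5. At P1 they were 0 with common-median scaling, the 8 arrays of 1 age alone or sex as a covariate, 1 with cyclic loess, no filter or the larger cluster alone, and 0 to 2 without each array in turn. Unadjusted, the 420 probes at P30 became 936 without a filter and 211 with common-median scaling, and 229 without *Mef2c*-het replicate 6, 661 without WT replicate 2 and 1229 without *Mef2c*-het replicate 7. The 337 at P1 became 746 without a filter, 1039 with the block, 507 in the larger cluster alone, 220 for the 8 arrays of 1 age alone, 669 with the cluster as a covariate and 186 with common-median scaling, and were 215, 535 and 588 without WT replicates 4, 5 and 8. For the change between the ages, 0 probes were called, or 1 with the cluster as a covariate, and the 438 unadjusted became 224 with common-median scaling, 906 without a filter and 683 with the cluster as a covariate, and ran from 283 to 941 without each array, lowest and highest without *Mef2c*-het replicates 6 and 7 at P30.

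Whether replicate numbers pair the samples is not known. Same-numbered arrays correlated in their deviations from the group means at 0.0909, 0.397 and 0.82 at P1 and 0.17, -0.522 and 0.697 at P30, and each correlated best with its own number at P1 but at P30 replicates 3 and 6 did not. With the replicate number as a block 0 receptor probes were called at either age, and at P1 the log2 values of *Gria2* ILMN_2680737, *Gria3* ILMN_1223636, *Gria4* and *Grik4* turned to 0.176, 0.0534, 0.0532 and -0.0309. No *Mef2c*-het array detected *Gria3* ILMN_1223636 at P1, so that its value there has no direction.

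Values that changed sign were never called, and the cause was not tested. With common-median scaling these were *Gria2* ILMN_2680737 at P1 (0.00685), *Gria3* ILMN_1223636 at P1 (0.00219), *Grik1* at P30 (0.00661) and the change of *Gria3* ILMN_2638066 between the ages (0.00128). With sex as a covariate they were *Gria2* ILMN_2680737 (0.00157), *Gria3* ILMN_1223636 (0.000981) and *Gria4* (0.0246) at P1, and the age change of *Gria4* in WT (0.13). With the cluster as a covariate they were *Gria3* ILMN_2638066 at P30 (0.0147), its change between the ages (0.0387) and *Grik1* at P30 (0.0194). In the larger cluster alone they were *Grik1* (-0.00274) and *Grik5* (-0.000844) at P1. Without each array in turn, the age change of *Gria4* ran from -0.173 to 0.0401 in WT and from -0.00756 to 0.148 in *Mef2c*-het mice. At P30 the genotype differences ran from -0.153 to 0.013 for *Gria1* ILMN_2648012, -0.155 to 0.00564 for *Gria3* ILMN_2638066 and -0.0856 to 0.0294 for *Grik1*. At P1 they ran from -0.0877 to 0.0959 for *Gria2* ILMN_2680737, -0.0664 to 0.0113 for *Gria2* ILMN_3122922, -0.0342 to 0.0365 for *Gria3* ILMN_1223636, -0.0754 to 0.00462 for *Gria3* ILMN_2638066, -0.144 to 0.0693 for *Gria4* and -0.00341 to 0.102 for *Grik4*. The change between the ages ran from -0.131 to 0.0293 for *Gria3* ILMN_2638066 and from -0.0022 to 0.104 for *Grik4*. The P1 values of *Gria3* ILMN_1223636 in this paragraph likewise have no direction, since no *Mef2c*-het array detected it at P1.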
